A study of Poecilia latipinna with 15 samples.

Results

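The transcripts described here rose with the strength of preference among females that chose between males and also among other females that chose between females. They were found in whole brains of adult female sailfin mollies, *Poecilia latipinna*, a live-bearing fish. A transcript was a member when Spearman's rho between its CPM (the estimated count scaled to a fixed library total) and the preference score was 0.7 or more in the 8 females of the male-interaction context (Mm) and also 0.7 or more in the 7 females of the female-interaction context (Ff). Transcripts whose CPM ranges in females 9 to 19 and females 1 to 8, by the numbers in the sample labels, did not overlap were left out. Of 31813 transcripts listed, 21671 had a TPM (a level scaled for transcript length and to a fixed total) above 2 in 3 or more of the 15 females and were tested, and 200 of them were members, 0.923% of those tested. The members were thus chosen by their measured relation to the score in these same females. Among them, 4 transcripts of 4456 bases and 2 of 1038 bases had the same TPM as each other in every female and may be copies that share reads, and counting each such set once leaves 196.

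All females were reproductively mature, had lived with males in an outdoor pond, and were kept alone for 2 weeks before a trial of 30 min behind dividers, after which each brain was sequenced by itself as 1 library. Mm females faced a large courting male and a small male of the coercive type, and Ff females faced a large and a small female, so body size was the axis of choice in each context. There was no group without a social stimulus, the same stimulus fish served repeatedly, and only females that spent most of the trial beside the stimuli were sequenced. The preference score is the share of a female's stimulus-directed movements that went to the fish she favored, whichever that was, and it runs over 0.5 units, from no bias to movements to 1 fish only.

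Females of live-bearing fishes inspect a partner by approaching it and swimming along it, and in many of these species they favor large males as mates and large females as shoal mates. Partner choice is known to draw on sensory processing, on dopamine and neuropeptide signals in the forebrain and on circuits that weigh rewards, and neurons change their transcripts within a short time after social stimulation. Whole-brain RNA averages over all of these regions and over neurons, glia, vessels and blood, so that fewer cells of a type and less RNA per cell cannot be told apart in the values below. The transcripts carry Ensembl identifiers that no table used here pairs with a gene, so the members are described by their length, level and pattern, pathways and cell type markers were not analysed, and the tissue label was not checked against markers.

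The libraries held 3424641 to 9989142 estimated counts in Mm females and 5301116 to 10555933 in Ff females, and the tested transcripts held 99.6% of all estimated counts. Within a context the score was nearly unrelated to this total, with a rho of -0.0238 in Mm and 0.214 in Ff. It ran against the female's number, with a rho of -0.881 in Mm and -0.857 in Ff, and standard length rose with it, with a rho of 0.619 in Mm and 0.571 in Ff. What the numbers stand for is not stated in the sources used here. Females 9 to 19 comprised 4 Mm and 3 Ff females and females 1 to 8 comprised 4 of each context. Each female is 1 animal, and these relations are given as descriptions of the same 15 females.

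Both conditions on the score were needed to arrive at the members. In Mm, 1578 of the tested transcripts had a rho of 0.7 or more, 7.28% of them, and in Ff 2015 had one, 9.3%. Together 271 transcripts met both conditions, 1.25% of those tested, where the product of the 2 single-context shares gives 147. This product is given as a description and no test was made of it. Of the 271, 71 (26.2%) were left out because their ranges in the numbered groups did not overlap, against 442 such transcripts among all tested (2.04%). In the members these ranges overlapped, or in 2 of them met only at a count of 0. The opposite pattern, a rho of -0.7 or less in each context with overlapping ranges, was found in 134 transcripts.

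The members' rho was 0.714 to 0.976 in Mm and 0.704 to 1 in Ff, with a median of 0.786 in each. With so few females rho moves in steps where values are not tied, and many members stood on the first step inside the threshold, 29 of them in Mm and 45 in Ff at a rho of 0.714. On the first step outside were 26 transcripts in Mm at a rho of 0.690 and 40 in Ff at 0.679 that met every other condition. At the other end, 14 members had a rho of 0.85 or more in both contexts, and 1 member followed the order of the Ff females without exception. These 14 spanned mean levels of 3.51 to 86.5 TPM and lengths of 696 to 7748 bases. All these values chose the members and carry no test.

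The members as a group stood low in the females of lowest score and high in those of highest score, in each context. The paper gives a lower median score and a smaller interquartile range in Ff than in Mm, so a high rank in Ff need not mean a strong bias. For every transcript the log2(CPM + 0.5) in a female was taken relative to that transcript's own mean over the 15 females. In Mm, from the lowest to the highest score, the members' median was -0.38 in female 12, -0.24 in female 13, -0.24 in female 11, 0.06 in female 6, -0.05 in female 10, 0.39 in female 3, 0.29 in female 5 and 0.39 in female 4. In Ff, in the same order of score, it was -0.33 in female 17, -0.32 in female 19, -0.23 in female 9, 0.08 in female 8, 0.24 in female 1, 0.13 in female 7 and 0.41 in female 2. The 3 lowest scores of each context thus had the lowest medians, and the order was not strict among the higher ones. All tested transcripts together stayed between -0.07 and 0.09 in every female.

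**Figure D1:**
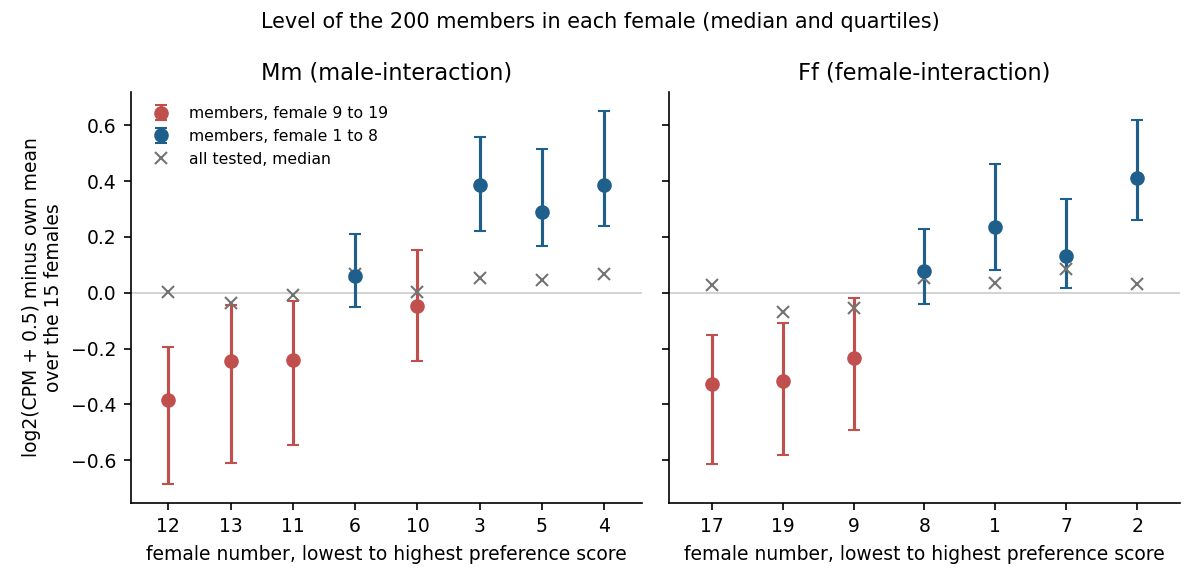
Level of the 200 members in each of 8 Mm females (left) and 7 Ff females (right), ordered by preference score. Circles and bars give the members' median and quartiles of log2(CPM + 0.5) minus each transcript's own mean, red for females 9 to 19 and blue for females 1 to 8, and crosses give the median over all tested transcripts. Members' medians run between -0.38 and 0.41, all red medians lie below all blue ones, and the crosses stay near 0.

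Single members were also counted from the same deviations, by which they were chosen, so these counts carry no test. In Mm, 13 of the 200 members were above their own mean in female 12, 40 in female 13, 45 in female 11, 125 in female 6, 90 in female 10, 192 in female 3, 188 in female 5 and 195 in female 4. In Ff, 21 were above it in female 17, 28 in female 19, 44 in female 9, 133 in female 8, 166 in female 1, 158 in female 7 and 194 in female 2. The middle scores of each context were mixed, with neither nearly all nor nearly none of the members raised. The share of all TPM that the members held ran from 0.523% to 0.906% in Mm females and from 0.525% to 0.917% in Ff females. Their median level was between 9.68 and 18.4 TPM in Mm females and between 9.84 and 19.5 TPM in Ff females, while that of all tested transcripts stayed between 9.61 and 11.6 TPM in Mm females and between 9.38 and 11.6 TPM in Ff females.

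A few females set the top and the bottom of most members, a pattern that the choice of members by the score favors and that was not tested. Female 4 had the highest CPM among Mm females in 85 members, female 3 in 63, female 5 in 45 and female 10 in 7. The lowest Mm value was that of female 12 in 86 members, of female 13 in 58 and of female 11 in 38. In Ff, female 2 was highest in 122 members, female 1 in 37, female 7 in 30 and female 8 in 11. The lowest Ff value was that of female 17 in 81 members, of female 19 in 58 and of female 9 in 53.

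ENSPLAT00000027934.1, of 951 bases, had a rho of 0.905 in Mm and 0.929 in Ff. The smaller of the rho values was highest, at 0.905, in 3 members, and of these it had the highest mean CPM. From the lowest to the highest score its level was 57.7, 86.4, 63.3, 93.3, 92.4, 117, 102 and 106 TPM in Mm females. In Ff females it was 55.6, 78.0, 76.8, 84.6, 86.9, 95.4 and 101 TPM, again from lowest to highest score. The highest female thus stood 2.04-fold above the lowest in Mm and 1.82-fold in Ff, on 205 to 749 estimated counts in Mm and 222 to 617 in Ff. The contexts overlapped widely, with 89.8 ± 20.5 TPM in Mm (SD, n = 8) and 82.7 ± 14.8 TPM in Ff (SD, n = 7). Its fitted slope was 0.66 on the log2 scale over the whole span of the score in Mm (SE 0.26) and 0.53 in Ff (SE 0.28). The slope in Ff was 0.27 without Ff 17 and 0.92 without Ff 2.

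The most abundant member was ENSPLAT00000013749.1, a short transcript of 484 bases with a mean of 783 TPM. From the lowest to the highest score it measured 497, 725, 525.9, 854, 723, 1118, 975 and 1031 TPM in Mm females. The Ff females, in the same order, had 429, 508, 519, 1014, 807, 1025 and 995 TPM. In Ff these values formed a low set of 3 females, all numbered 9 or above, and a high set of 4 females, all numbered 8 or below, and female 13 of Mm, at 236 CPM, against female 1 of Ff, at 233 CPM, alone made the ranges of the numbered groups overlap. Its mean was 806 ± 229 TPM in Mm (SD, n = 8) and 757 ± 266 TPM in Ff (SD, n = 7). The slope over the span of the score was 0.88 in Mm (SE 0.32) and 0.97 in Ff (SE 0.36) on the log2 scale. It was 1.93 in Ff without Ff 2 and 0.45 in Mm with standard length as a term.

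**Figure D2:**
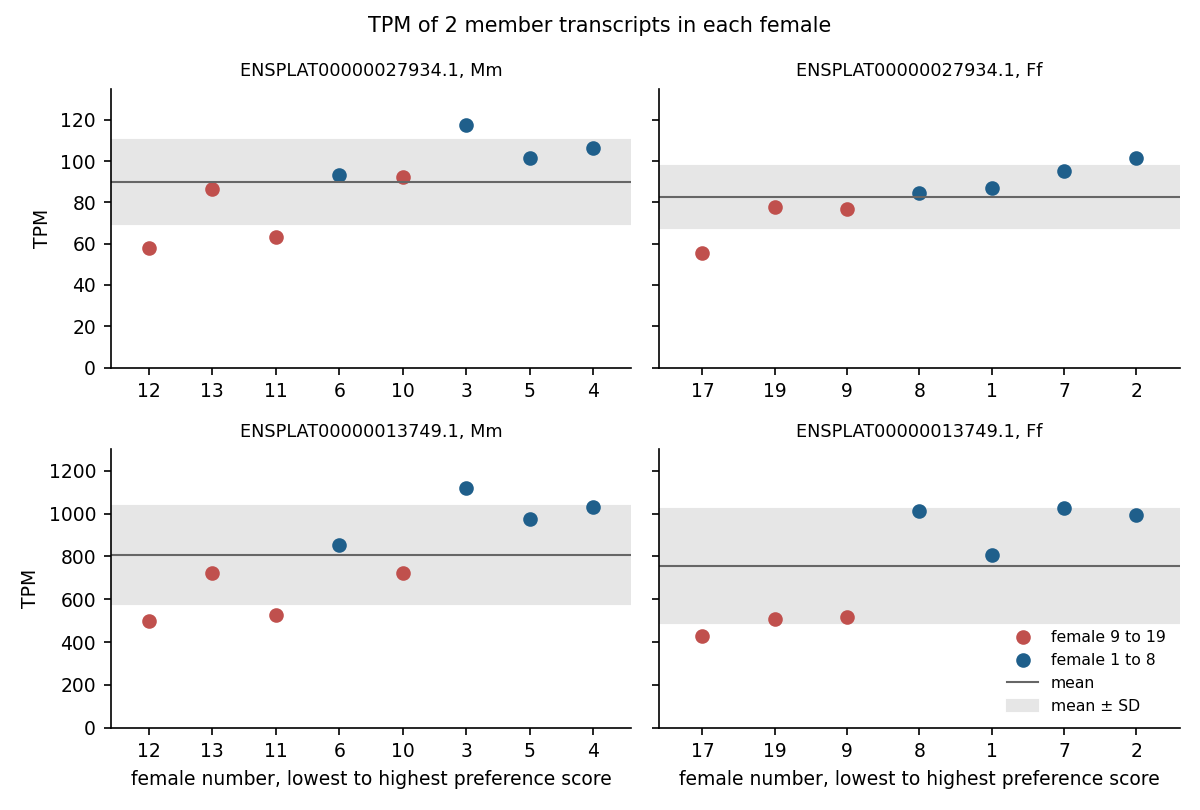
TPM of 2 members in each female, Mm left and Ff right, ordered by preference score within a context. Each point is 1 female (red, numbers 9 to 19, and blue, numbers 1 to 8), the line is the mean of the context and the band is 1 SD on either side of it. ENSPLAT00000027934.1 is lowest in the female of lowest score in each context and rises unevenly, with a highest level of 117 TPM in Mm and 101 TPM in Ff. ENSPLAT00000013749.1 splits in Ff into 3 females at 429 to 519 TPM and 4 at 807 to 1025 TPM.

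Slopes were estimated for all tested transcripts in 1 limma model with a separate slope per context, and are given as the log2 difference over the whole span of the score. The members' median slope was 0.80 in Mm (median SE 0.31, range 0.14 to 7.59), a 1.74-fold difference, and 0.64 in Ff (median SE 0.32, range 0.06 to 5.24), a 1.56-fold difference. The medians over all tested transcripts were 0.06 in Mm and 0.02 in Ff. By the paper's median, most Ff scores lay near no bias, so a slope over the whole span extends past most Ff females. The members' median slope in Ff was 0.50 without Ff 17 and 0.74 without Ff 2. Every member's slope was above 0 in each context, a sign that the choice of members by rank favors, against 54.5% of all tested transcripts in Mm and 51.4% in Ff. The slope was larger in Mm than in Ff in 143 members and larger in Ff in 57. This difference was not tested, since the rule used the same score in the same females. No share over all tested transcripts is set beside these counts.

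The members differed in steepness, and the steeper slopes were those of low members. Among the 76 members with a mean under 10 TPM the median slope was 1.01 in Mm and 0.74 in Ff. It was 0.61 in Mm and 0.56 in Ff among the 110 members at 10 to 100 TPM, and 0.52 in Mm and 0.53 in Ff among the 14 members at 100 TPM or more. The abundant members were therefore those with modest slopes of like size in each context, none of them over 1.19 in Mm or 0.97 in Ff. Slopes under 0.5 in both contexts were found in 32 members, with a median level of 31.7 TPM, and slopes over 1 in both in 37.

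**Figure D3:**
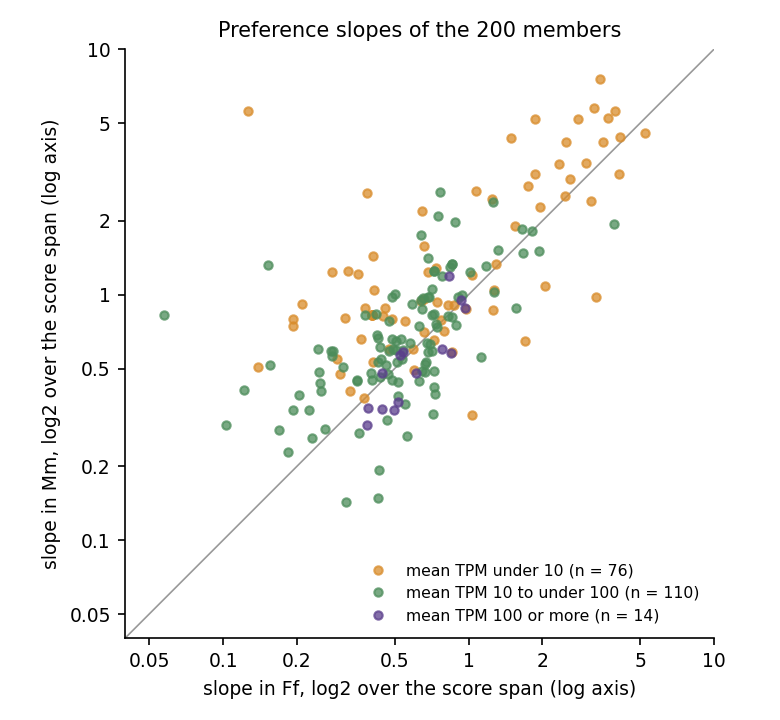
Preference slope of each of the 200 members in Mm (vertical) and Ff (horizontal), as log2 difference over the span of the score, on log axes with the line of equal slopes. Colors give 3 classes of mean TPM, with 76, 110 and 14 members, and 143 members lie above the line. The steepest members in both contexts have a mean under 10 TPM, and the 14 most abundant lie in the middle of the plot.

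The steepest members were not detected in some libraries. In 15 members the slope was over 2 in both contexts, and 14 of these had an estimated count of 0 in at least 1 female. Their mean level was 0.874 to 7.41 TPM, with lengths of 588 to 7761 bases. In Mm, from the lowest to the highest score, 9, 9, 9, 3, 3, 1, 0 and 0 of the 15 had a count of 0. In Ff, in the same order, 10, 12, 7, 3, 3, 0 and 0 of them had one. The choice of members by the score favors counts of 0 at low scores, so these counts carry no test. Their median level was 0 TPM in the 3 Mm females of lowest score, 1.79 in female 6, 0.812 in female 10, 3.44 in female 3, 3.94 in female 5 and 5.74 in female 4. In Ff it was 0 in females 17 and 19, 1.87e-08 in female 9, 1.37 in female 8, 1.66 in female 1, 2.67 in female 7 and 4.60 in female 2. Fitted slopes of transcripts with counts of 0 depend on the small value that voom adds before taking logs and give no bound on the fold difference.

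Among all 200 members, 28 (14%) had a count of 0 in at least 1 female, against 19.3% of all tested transcripts. All 28 were at 0 in at least 1 of females 9 to 19, 19 of them in these females only, and 9 were at 0 in a female of each numbered group. By female, 5 to 18 members were at 0 in females 9 to 19 and 0 to 5 in females 1 to 8. Most members were well measured, and 155 had a TPM above 2 in all 15 females, with a median over members of 178 estimated counts per library.

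Members were somewhat longer and more abundant than the transcripts they were drawn from. Their median length was 2577.5 bases, against 1782 bases for all tested transcripts, and their median level was 13.8 TPM, against 10.9 TPM. In 4 classes of equal size by length, from the shortest to the longest, 36, 31, 50 and 83 of the tested transcripts were members, which is 0.663%, 0.573%, 0.923% and 1.53% of each class. In 4 such classes by mean CPM, from the lowest to the highest, 22, 44, 57 and 77 were members, or 0.406%, 0.812%, 1.05% and 1.42%. Long transcripts give more reads at the same level, so length and counting depth cannot be told apart here. The 71 transcripts left out for their separated ranges had a median length of 1962 bases and a median level of 21.8 TPM.

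**Figure D4:**
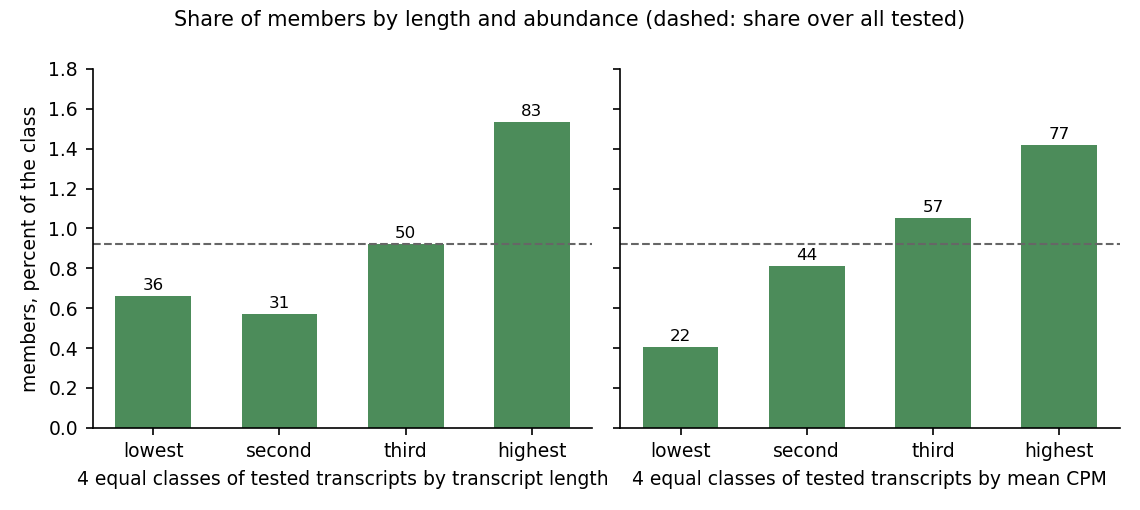
Members as a percentage of the tested transcripts in each of 4 classes of equal size by transcript length (left) and by mean CPM (right), with the number of members above each bar and the share over all tested transcripts, 0.923%, as a dashed line. The share is highest in the longest class (83 members, 1.53%) and in the most abundant class (77 members, 1.42%).

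Slopes were found over the whole range of lengths. The 55 members longer than 4000 bases had a median slope of 0.78 in Mm and 0.49 in Ff, and the 38 members shorter than 1000 bases had 0.98 in Mm and 0.84 in Ff. The median log2 deviation from each transcript's own mean was compared between tested transcripts longer than 4000 bases and those shorter than 1000 bases. The first minus the second, a measure that moves with RNA quality and library preparation, lay between -0.16 and 0.17 in females 9 to 19. It lay between -0.02 and 0.16 in females 1 to 8. These ranges overlapped only through Mm 12, at 0.069, and Ff 17, at 0.171. The other females of 9 to 19, at -0.156 to -0.025, lay below the lowest of females 1 to 8, at -0.020. The part of this measure in the members' pattern was not tested. The level of the members was spread over many transcripts, with the 5 most abundant, of 194 to 783 TPM, holding 30.7% of their summed TPM.

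The members also differed between the numbered groups, along which the score itself ran. The median of the members' deviations was -0.38 to -0.05 in the 7 females 9 to 19, against 0.06 to 0.41 in the 8 females 1 to 8, without overlap. After TMM scaling the members' ranges were -0.38 to -0.02 in females 9 to 19 and 0.01 to 0.38 in females 1 to 8. The median over all tested transcripts was also without overlap before TMM scaling, by far smaller amounts. It was -0.069 to 0.029 in females 9 to 19 and 0.032 to 0.085 in females 1 to 8. After TMM scaling it overlapped, with 0.034 in female 10 and 0.005 in female 1. In a model with context, the difference of females 9 to 19 minus females 1 to 8 was below 0 in all 200 members. Its median was -0.51, against 54.7% below 0 and a median of -0.05 for all tested transcripts. For the 71 transcripts left out the median was -0.71. Choosing members by a score that ran against the number favors this sign, so the difference carries no test. The overlap that kept a member was slight in part of them. In 67 members only 1 of females 9 to 19 exceeded the lowest of females 1 to 8, and in 131 members 2 or more did. In 22 of the 67 it was female 10, the Mm female of that group with the highest score. No share over all tested transcripts is set beside these counts.

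With the numbered group as a term the slopes were smaller and no larger than about 1 SE at the median. The members' median slope was then 0.40 in Mm (median SE 0.40) and 0.37 in Ff (median SE 0.36), which is 50.7% and 57.4% of the slope without that term. Slopes remained above 0 in 188 members in Mm and in 188 in Ff, and in 177 in both, against 33.0% of all tested transcripts with a slope above 0 in both. The members were chosen on the same score in the same females, so these counts are no separate support, and the score and the number cannot be told apart from them. For ENSPLAT00000027934.1 the slope with this term was 0.51 in Mm (SE 0.36) and 0.41 in Ff (SE 0.34). For ENSPLAT00000013749.1 it was 0.16 in Mm (SE 0.36) and 0.38 in Ff (SE 0.35), less than the SE of the estimate in Mm. With standard length as the added term in its place, the members' median slope was 0.55 in Mm and 0.57 in Ff. Standard length itself, in a model with context, had a slope above 0 in all 200 members, against 53.7% of all tested transcripts. The members' median was 0.28 on the log2 scale per 10 mm. Standard length rose with the score by which members were chosen, which favors this sign, and the slope was not tested.

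The rank correlation with the score was also taken inside the numbered groups. In the 4 Mm females numbered 9 to 19, 161 members (80.5%) had a rho above 0, against 44.9% of all tested transcripts. In the 4 Mm females numbered 1 to 8, 185 (92.5%) had one, against 46.9%. In the 3 Ff females numbered 9 to 19 the count was 123 (61.5%), against 43.9%, and in the 4 Ff females numbered 1 to 8 it was 170 (85%), against 43.9%. In all 4 of these sets, 69 members had a rho above 0, against 4.93% of all tested transcripts. Each set holds females whose ranks the rule itself used, so these shares describe where the members' correlation lies and are no separate test.

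**Figure D5:**
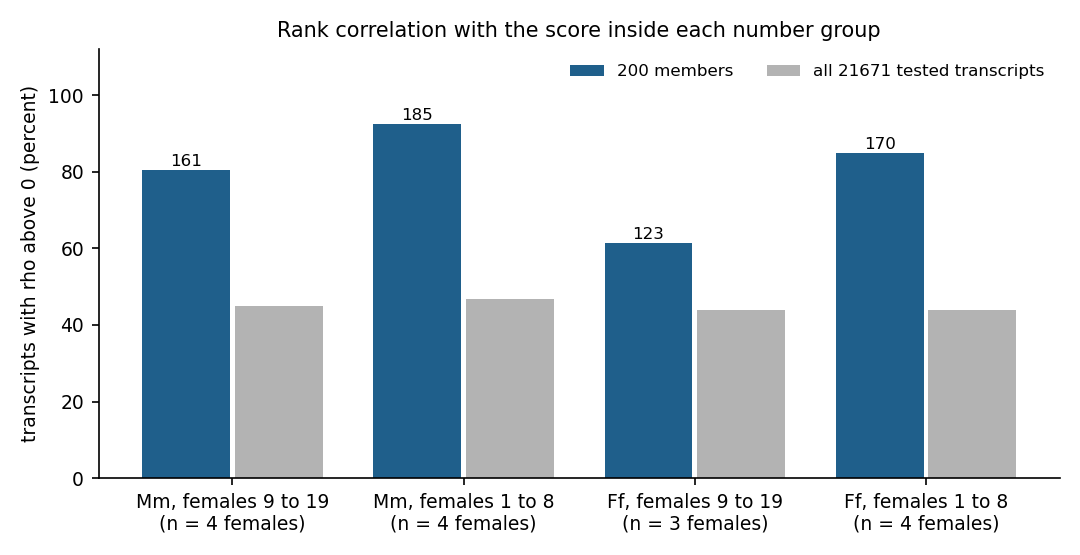
Percentage of the 200 members (blue, with the count above each bar) and of all 21671 tested transcripts (grey) whose Spearman's rho with the score is above 0 within a context and numbered group of 3 or 4 females. Members range from 61.5% in Ff females 9 to 19 to 92.5% in Mm females 1 to 8, and all tested transcripts from 43.9% to 46.9%.

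Over the females of both contexts, the median rho of the members was 0.29 over the 7 females 9 to 19 and 0.47 over the 8 females 1 to 8. It was above 0 in 147 members among females 9 to 19 (46.4% of all tested transcripts) and in 192 among females 1 to 8 (50.4%). A rho of 0.7 or more was reached by 30 members among females 9 to 19 (4.78% of all tested) and by 46 among females 1 to 8 (3.28%), and by 6 in both, against 0.134% of all tested. Over females 1 to 8 alone, then, fewer than 1 in 4 members met the same threshold.

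The same values were also compared between females next to each other in score but from different numbered groups, and then within a group. Female 10 stood just above female 6 in score among Mm females, and 72 members (36%) were higher in female 10, against 44.8% of all tested transcripts, with a median log2 difference of -0.12 for members and -0.05 for all tested. Female 9 stood just below female 8 in score among Ff females, and 36 members (18%) were higher in female 9, against 43.2%, with a median difference of -0.29 for members and -0.09 for all tested. Within females 9 to 19 of Mm, female 10 stood above female 11 in score, and 130 members (65%) were higher in female 10, against 48.6%, with a median difference of 0.21 for members and 0.00 for all tested. Each pair is 2 libraries, with no replicate. Other neighbors in score within a numbered group were not compared in this way, and the members' medians did not rise at every such step. The rule used the ranks of these same females, so the shares are no separate test of the score against the number.

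Members moved together across females, and only to a small degree once the fitted score and the numbered group were removed. The median correlation between pairs of members across the 15 females was 0.54. The relation to the score by which members were chosen enters this value. Between pairs of tested transcripts it was -0.00, and all such pairs here were drawn from 1 in 10 of the tested transcripts (2168 transcripts). After the context, the score within it and the numbered group were removed, the median was 0.10 for pairs of members and 0.00 for pairs of tested transcripts. Residual correlations above 0.5 were found in 12.8% of the pairs of members and 7.46% of the pairs of tested transcripts. The rule chose members by rank order, so part of their relation to the score may remain after a fit. The pairs also include the members with the same TPM in every female. These are correlations over the same 15 libraries and are given as a description, not as movement beyond the score.

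The level of the members was next compared between the contexts, a contrast that the rule did not use. None of the 200 members differed between Mm and Ff at an unadjusted p below 0.05 in limma, against 2.69% of all tested transcripts. None did in edgeR (2.10% of all tested) or DESeq2 (2.19%). The median difference of Mm minus Ff was -0.01 (median SE 0.20), the same as over all tested transcripts, 91 members were above 0, against 47.6% of all tested transcripts, and 156 members lay within 0.25 of 0 on the log2 scale. A 95% interval of 1.96 SE reached a median of 0.39 on either side of a member's difference, so that smaller differences could not be resolved in single members. In this model the rise with the score counts as spread within a context. With the numbered group as a term, 12 members passed, 9 higher in Mm and 3 lower in Mm (4.10% of all tested). With the score as a term 17 passed, all lower in Mm (3.65% of all tested), a value that contains slopes on the score by which members were chosen. Leaving out 1 female let at most 2 members pass, without Mm 11 or without Mm 12 (2.77% of all tested in each). Just 1 member passed without Mm 3 (2.86%), Mm 13 (2.63%), Ff 1 (2.81%), Ff 8 (3.49%), Ff 9 (2.81%) or Ff 17 (2.75%).

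Social affiliation, the time spent next to either stimulus, was likewise not part of the rule and had a rho with the score of -0.262 in Mm and -0.143 in Ff. In Mm, 8 members (4.0%) had an affiliation slope with an unadjusted p below 0.05 in limma, all below 0, against 5.0% of all tested transcripts and 2.28% with a slope below 0. None passed after Benjamini-Hochberg adjustment in limma (smallest adjusted p = 0.935), against 0.00461% of all tested transcripts, and edgeR called 7 (3.5%, against 3.85% of all tested) and DESeq2 15 (7.5%, against 6.14%), all below 0. These 8 had slopes of -4.34 to -0.27 on the log2 scale per 100 s and mean levels of 2.35 to 18.1 TPM. Over all members the median slope was -0.17 per 100 s in Mm, with 188 of the 200 below 0, against a median of -0.00 and 50.8% below 0 for all tested transcripts. With the numbered group as a term the median was -0.02 and 126 were below 0, and with the score as a term it was -0.08 and 156 were below 0. The score by which members were chosen had a rho of -0.262 with affiliation in Mm, which favors slopes below 0. The members also moved together, so these counts of signs are a description and carry no test. The count of 8 rested on single females. It was 2 without Mm 12 (4.75% of all tested), 3 without Mm 3 (3.59%), 5 without Mm 13 (4.66%), 19 without Mm 11 (5.96%) and 21 without Mm 5 (6.08%), all below 0.

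In Ff the members showed little relation to affiliation. The slope had an unadjusted p below 0.05 in limma in 2 members, 1 above 0 (2.99% of all tested transcripts) and 1 below 0 (4.31%), against 7.29% in either direction, and none passed after adjustment (smallest adjusted p = 0.604). The median slope was 0.02 per 100 s with 116 members above 0, against 50.9% of all tested transcripts. The sign of the members' median turned with the scaling, being -0.01 without TMM factors and -0.07 with limma on log2(TPM + 1). The median over all tested transcripts moved as well, from 0.01 to -0.03 and -0.08 in these fits. Without Ff 17, 14 members passed, all below 0 (8.16% of all tested), and 1 passed without Ff 1 (7.18%) or without Ff 7 (6.74%). The slope in Mm minus the slope in Ff had an unadjusted p below 0.05 in 6 members, all below 0, against 6.09% of all tested transcripts and 2.54% with a difference below 0, with none after adjustment (smallest adjusted p = 0.795), and 3 of these 6 were among the 8 of Mm.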

How the data were processed

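RNA of 15 single brains (8 Mm and 7 Ff) was sequenced as single-end reads. The paper mentions sequencing lanes but not which libraries each held, so lane could not be set beside the numbered groups. Trimmed reads were pseudoaligned by the authors to Ensembl's sailfin molly transcripts with Kallisto 0.43.0. The estimated counts deposited for each transcript need not be whole, and the TPM deposited beside them are these counts scaled by effective length. The authors summed transcripts by gene, whereas transcripts were kept apart here, and reads shared by isoforms or paralogs stay as Kallisto split them. Of 31813 identifiers 0 were paired with a gene name by the tables used here, so the gene and marker lists drawn up beforehand could not be applied. Columns of values without a sample numbered 0. Preference scores, affiliation and standard length were read from the study's behavioral table as covariates only, and their values are not printed.

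CPM used the library total. Models were fitted over all 21671 transcripts with TPM above 2 in at least 3 females, on rounded estimated counts with TMM factors, voom and limma 3.58.1 (R 4.3.3), with the study's models for context, affiliation and preference within context. A call was an unadjusted p below 0.05, the study's first threshold, and its second one from shuffled labels was not run. Benjamini-Hochberg adjusted values over all transcripts are given beside it. Alternatives used edgeR 4.0.16, DESeq2 1.42.0, limma on log2(TPM + 1) and log2(TPM + 0.1), no TMM factors, no filter, other rules for membership, added terms and each female left out. Intervals cover the spread between females, and p-values measure only that. Python 3.11.15, NumPy 2.4.6, SciPy 1.17.1 and pandas 2.3.3 were used, and the scripts were first tested on simulated libraries in which 200 transcripts had been changed. No 2 libraries were near identity (smallest chi-square per degree of freedom 10.04).

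The members, the comparisons and the rule for names were chosen with earlier results of these data known. With no gene names, the rule named 2 members, that with the highest smaller rho of both contexts (ties by higher mean CPM) and that with the highest mean TPM.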

Additional observations from a re-analysis of the deposited data

Results flagged for a closer look

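Among the 7 Ff females, the library of female 8 held 10555933 estimated counts and stood apart from the others, whose totals ran from 5301116 to 6742415. About 1 group in 20 is set apart in this way by chance. Female 8 had the middle score of Ff, and 133 of the 200 members were above their own mean in it. Without Ff 8 the rule, which is looser with fewer females, gave 239 transcripts, 155 of them members.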

How the results depend on the processing

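The number of transcripts that met the rule was 200, and it depended on where the threshold lay, with 108 at a rho of 0.75 or more and 37 at 0.8 or more. It was 201 to 309 when 1 female was left out, the highest without Mm 10, and 124 to 174 of the members still met the rule then, 14 of them whichever female was left out. A rho of 0.7 is a looser condition with fewer females, so these counts cannot be set directly against the 200. TPM in place of CPM gave 210 transcripts, 130 of them members, CPM with TMM factors gave 149, 116 of them members, and Pearson's r gave 148, 60 of them members.

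The shares in parentheses are of all tested transcripts in the same fit. The count of members that differed between contexts was 0. It was 3 with limma on log2(TPM + 1) (2.70%), 1 on log2(TPM + 0.1) (2.44%) and 12 with the numbered group as a term (4.10%). With the score as a term it was 17 (3.65%), and when 1 female was left out it was 0 to 2 (2.44% to 3.49%). For affiliation in Mm the count of 8 was 15 in DESeq2 (6.14%), 14 on log2(TPM + 0.1) (5.35%) and 0 after adjustment. It was 2 to 21 when 1 female was left out (3.59% to 6.08%). For affiliation in Ff the count of 2 was 5 in DESeq2 (9.41%), 5 on log2(TPM + 1) (9.29%) and 7 on log2(TPM + 0.1) (9.43%). It was 8 with the numbered group as a term (8.08%), 4 with the score as a term (7.45%) and 0 after adjustment. Leaving out 1 female gave 1 to 14 (5.75% to 8.38%). The cause of these differences was not tested. The members' median slope in Mm was 0.40 with the numbered group as a term, against 0.80 without it, and 0.71 to 0.83 when 1 female was left out. In Ff it was 0.50 to 0.74 then. The median slopes stayed above 0 in these settings, while single members turned, 12 in each context with the numbered group as a term. No paired analysis was possible because Mm and Ff share no female number. With 7 or 8 females per context and a score that runs against the number, neither could be held fixed while the other varied widely.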
